A study of Mus musculus with 6 samples.

Results

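The genes described here are 33 mouse genes listed by function as megakaryocyte and platelet genes, with earlier results of these data known. Of these, 30 had a probe set named for that gene alone, out of 18193 genes measured in this way. Serpine2 (a secreted protease inhibitor), Gp1ba (the ligand-binding chain of the glycoprotein Ib complex) and Ptgs1 (cyclooxygenase 1) have no such probe set named in the annotation used here and have no values. The 30 genes had 49 probe sets in all, and each gene was represented by the one with the highest mean signal over all arrays.

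RNA from fetal liver (FL) cells of mouse embryos at E14.5 was measured on 6 arrays of the Affymetrix mouse genome design, with a separate liver on each. The Pogz+/+ group (labelled Pogz-WT) held 3 livers with both Pogz alleles intact, and the Pogz-/- group (labelled Pogz-KO) held 3 livers lacking Pogz, which encodes a zinc finger protein of the nucleus. Both groups were congenic on C57BL/6 after more than 10 backcross generations, and the labels name no agent given to either. The deletion took out the part of Pogz encoding its CENPB and DDE domains and some of its zinc fingers, and was made in the germline with a β-actin-cre transgene, so every cell of a Pogz-/- embryo carried it. The livers were minced into a single-cell solution and strained but not sorted, so that each array held RNA of all liver cell types in proportion to their number and RNA content. In such bulk RNA, fewer megakaryocytes and less of a transcript in each megakaryocyte cannot be told apart. The question asked of these genes was whether their signal differed between Pogz-/- and Pogz+/+ FL.

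Megakaryocytes arise from megakaryocyte-erythroid progenitors (MEPs), which also give rise to red cells, and in the embryo much of this takes place in the FL. Under thrombopoietin and a set of transcription factors that includes GATA1, FLI1, RUNX1 and NF-E2, the cells become polyploid, fill with granules and shed platelets along microtubule-lined extensions called proplatelets. Platelets adhere through the glycoprotein Ib-IX-V complex, which binds von Willebrand factor. They are activated through receptors for collagen, thrombin, ADP and ATP, release their granules, and join to each other through the fibrinogen receptor, integrin αIIbβ3.

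Signals are given as log2 of the deposited probe set intensity, and differences as log2 fold changes of Pogz-/- over Pogz+/+. One array stood apart. In Pogz+/+ replicate 1 the β-actin control gave 52.3 times more signal at its 3′ end than at its 5′ end, a ratio that grows as RNA or its labelled copy becomes shorter. It was 5.50 and 6.63 for Pogz+/+ replicates 2 and 3 and ranged from 3.72 to 4.09 for Pogz-/-. Median intensity was 54.3, 37.5 and 35.9 for Pogz+/+ and no higher than 31.5 for Pogz-/-, so both measures moved with genotype even without replicate 1, and their part in the results was not tested. The counts of called members and the medians are therefore given over all 6 arrays and over the 5 without Pogz+/+ replicate 1. For some single genes only the fit without replicate 1 is given. By Xist signal, both genotypes held embryos of both sexes. The brightest of 4 probe sets of Pogz read 9.17, 9.03 and 8.95 in Pogz+/+ and 9.16, 9.22 and 9.33 in Pogz-/-. Where it lies relative to the deletion is not known here, so it does not check the genotype. In Pogz+/+ and Pogz-/- alike the markers of both main populations of the FL were high, with a mean log2 signal of 10.98 to 11.48 over 12 erythroid genes and of 8.08 to 9.34 over 9 hepatocyte genes.

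As a group, the megakaryocyte and platelet genes were close to even between genotypes on the deposited scaling. Thbs1, encoding thrombospondin 1, was the one member that passed the test, and only without Pogz+/+ replicate 1. On that scaling Selp and Cd9 were, like Thbs1, higher in every Pogz-/- array than in any Pogz+/+ array. Gp1bb, Gp9, Treml1 and Rgs18 were lower in every Pogz-/- array, and none of these passed the test. Such separation was no more frequent than among all genes, at 10.0% of members above and 13.3% below, beside 10.8% and 16.3%. Pf4 and Itga2b, which are typical of the lineage, overlapped between genotypes on the deposited scaling. With each array centred on its median both were higher in every Pogz-/- array, as were 26.5% of all genes on that scaling.

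Over all 6 arrays, 0 of 30 members passed the test (limma with Benjamini-Hochberg adjustment over all genes, adjusted p under 0.05, two-sided) in either direction. The background was low, with 0.077% of all 18193 genes called higher and 0.0165% called lower. At an unadjusted p under 0.05, 3 members (10.0%) were higher and 4 (13.3%) lower, beside 7.15% and 10.6% of all genes. Without Pogz+/+ replicate 1, 1 of 30 members was called higher (3.33%) and 0 lower, beside 2.41% and 2.07% of all genes. At an unadjusted p under 0.05, 2 members (6.67%) were then higher and 3 (10.0%) lower, beside 8.63% and 9.66% of all genes. The 3 arrays of each genotype did not overlap for 7 members, with Pogz-/- above in 3 (10.0%, against 10.8% of all genes) and below in 4 (13.3%, against 16.3%). The members' shares were thus near those of all genes in each count.

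The median log2 fold change over the 30 members was −0.05 over 6 arrays, with 13 positive and 17 negative, and −0.02 without Pogz+/+ replicate 1, with 14 positive and 16 negative. The median over all genes was −0.17 and −0.10. How arrays are scaled moves these values. Centring each array on its median raised the median of all genes to 0.29 over 6 arrays and 0.18 without replicate 1, and that of the members to 0.41 and 0.25. Centring adds the same amount to every gene's log2 fold change, 0.46 over 6 arrays and 0.27 without replicate 1, so differences close to that size depend on the scaling. Relative to all genes, the members' median was 0.12 higher over 6 arrays and 0.07 higher without replicate 1 on the deposited scaling, and 0.03 and −0.01 with quantile normalization. On the deposited scaling, the 95% confidence interval of the fold change lay within 2-fold in either direction for 16 members over 6 arrays and for 22 without replicate 1, and within 1.5-fold for 5 and 8. For the remaining members the interval reaches beyond that size on at least one side.

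**Figure D1:**
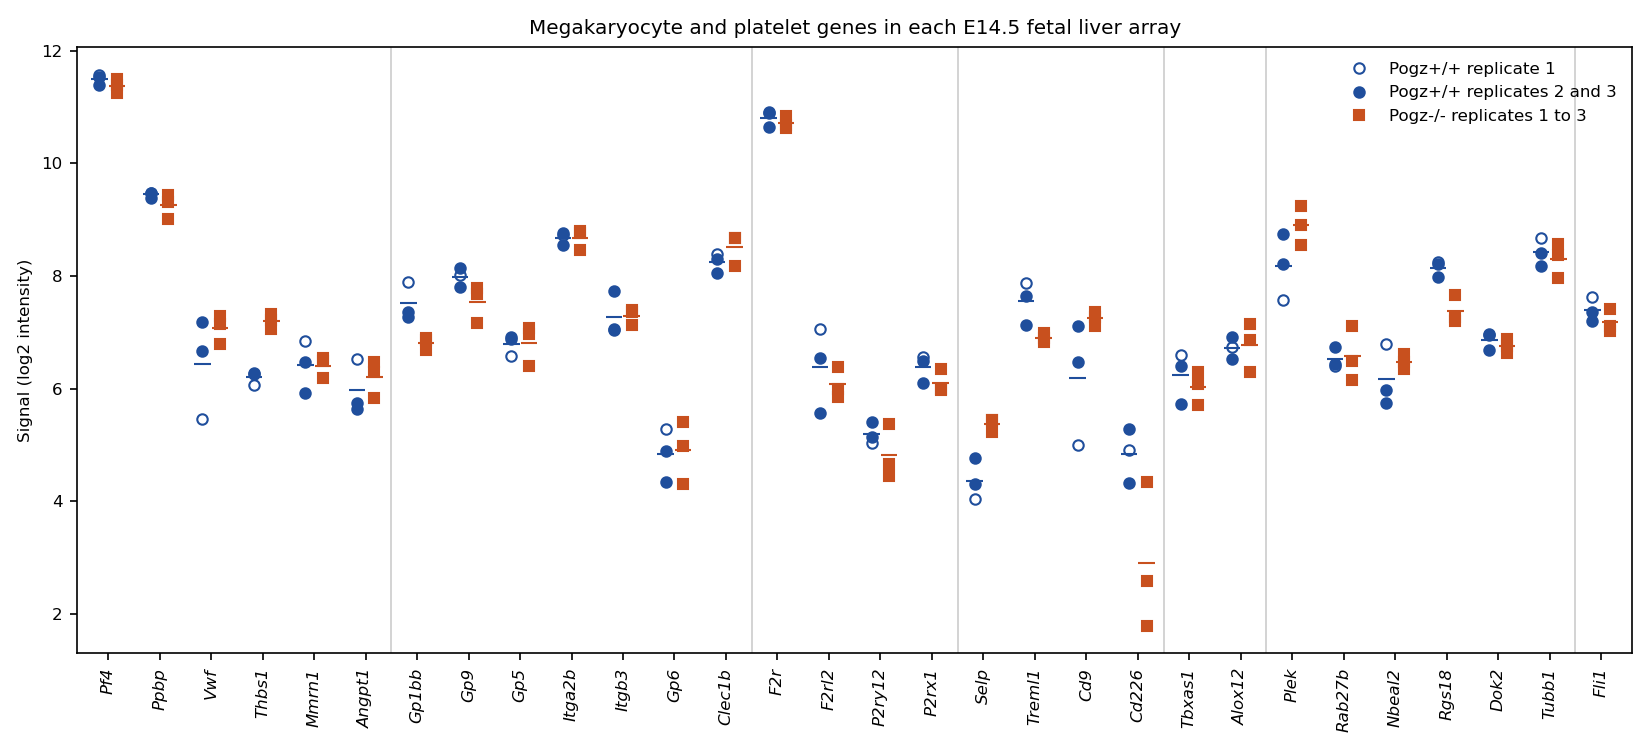
Signal of each of the 30 measured genes in each array (y axis, log2 of the deposited intensity), grouped by role between the grey lines in the order alpha-granule and secreted proteins, adhesion receptors, receptors for soluble agonists, other surface proteins, eicosanoid enzymes, signalling and secretion, and Fli1. Open circles are Pogz+/+ replicate 1, filled circles Pogz+/+ replicates 2 and 3, squares the 3 Pogz-/- arrays, and short lines the mean of each genotype. The arrays separate by genotype for Thbs1, Selp and Cd9 (Pogz-/- above) and for Gp1bb, Gp9, Treml1 and Rgs18 (Pogz-/- below). Heights of different genes are not comparable, since each probe set has its own response.

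Among proteins that megakaryocytes store in alpha-granules or secrete, Thbs1 was higher and the chemokines of the alpha-granule were near even on the deposited scaling. Thbs1, whose product binds integrins and matrix proteins and is released by activated platelets, had log2 signals of 6.07, 6.28 and 6.26 in Pogz+/+ replicates 1, 2 and 3 and of 7.06, 7.32 and 7.21 in Pogz-/-. Every Pogz-/- array lay above every Pogz+/+ array. Its log2 fold change was 0.99 over 6 arrays (SE 0.24; limma, adjusted p = 0.111) and 0.93 without Pogz+/+ replicate 1 (SE 0.21, a 1.90-fold rise; limma, adjusted p = 0.0269). The call without replicate 1 was lost when any further array other than Pogz-/- replicate 1 was left out (adjusted p = 0.117 to 0.140), where leaving out Pogz+/+ replicate 2 or 3 rests the group on 1 array. It was also lost without a variance trend and robust fit (adjusted p = 0.261). The second probe set of Thbs1 did not show the difference: it read 7.07, 5.53 and 6.33 in Pogz+/+ and 6.05, 6.11 and 6.03 in Pogz-/-. Its log2 fold change was −0.25 over 6 arrays and 0.13 without replicate 1 (SE 0.31).

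Pf4 and Ppbp encode platelet factor 4 and pro-platelet basic protein, chemokines held in alpha-granules and typical of this lineage. Pf4 read 11.58, 11.53 and 11.39 in Pogz+/+ and 11.24, 11.38 and 11.50 in Pogz-/-. The genotypes overlapped, and the log2 fold change without replicate 1 was −0.08 (95% confidence interval −0.29 to 0.13). Ppbp read 9.48, 9.39 and 9.47 in Pogz+/+ and 9.01, 9.32 and 9.44 in Pogz-/-, with a log2 fold change of −0.18 (interval −0.48 to 0.13). For both, the interval excludes a 1.5-fold difference in either direction on the deposited scaling. With median centring the log2 fold change of Pf4 was 0.34 over 6 arrays and 0.19 without replicate 1 (limma, adjusted p = 0.356 and 0.332), and that of Ppbp was 0.27 and 0.09. Every Pogz-/- array was then above every Pogz+/+ array for Pf4, as for 26.5% of all genes on that scaling.

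Vwf encodes von Willebrand factor, the adhesive multimer of alpha-granules and endothelium. It read 5.47, 6.67 and 7.19 in Pogz+/+ and 6.79, 7.30 and 7.15 in Pogz-/-. Replicate 1 was far below the other Pogz+/+ arrays, and without it the log2 fold change went from 0.64 to 0.15 (SE 0.23; limma, adjusted p = 0.788). Angpt1, the ligand of the TIE2 receptor on endothelium, read 6.54, 5.64 and 5.75 in Pogz+/+ and 6.30, 5.84 and 6.47 in Pogz-/-. Here replicate 1 was the highest of the 6 arrays, and the log2 fold change went from 0.23 to 0.51 (SE 0.30; limma, adjusted p = 0.403). Mmrn1, encoding the factor V-binding protein multimerin 1, had a log2 fold change of −0.01 over 6 arrays and 0.20 without replicate 1. Replicate 1 was the highest or the lowest of the 6 arrays for each of the 6 measured genes of this role, and for 21 of 30 members (70.0%), beside 67.0% of all genes.

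Among the adhesion receptors of the glycoprotein Ib-IX-V complex, Gp1bb and Gp9 separated by genotype on the deposited scaling and Gp5 overlapped. Gp1bb encodes the glycoprotein Ib β chain, which is disulfide-linked to the ligand-binding α chain. It read 7.90, 7.37 and 7.28 in Pogz+/+ and 6.69, 6.86 and 6.89 in Pogz-/-, so that no Pogz-/- array reached any Pogz+/+ array. The difference, as log2 fold change, was −0.70 over 6 arrays (SE 0.23; limma, adjusted p = 0.191) and −0.51 without replicate 1 (SE 0.19; limma, adjusted p = 0.186). With median centring it was −0.24 in both fits. Gp1bb was then the one member with every Pogz-/- array below every Pogz+/+ array, beside 5.66% of all genes. A dimmer probe set of the gene had log2 fold changes of −0.74 and −0.72, with overlapping arrays. Gp9, encoding glycoprotein IX, which the complex needs to reach the surface, read 8.01, 7.80 and 8.15 in Pogz+/+ and 7.16, 7.79 and 7.67 in Pogz-/-. The highest Pogz-/- array lay just under the lowest Pogz+/+ array. The log2 fold change was −0.45 over 6 arrays, where centring each array on its median turned it to 0.01, and −0.44 without replicate 1 (SE 0.21; limma, adjusted p = 0.309 and 0.297). Without replicate 1 it was −0.17 with median centring. Gp5, encoding glycoprotein V, the thrombin-cleaved subunit, read 6.58, 6.92 and 6.88 in Pogz+/+ and 6.41, 6.97 and 7.07 in Pogz-/-. The genotypes overlapped, with log2 fold changes of 0.02 and −0.08. No difference between these subunits was tested.

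The other adhesion receptors had overlapping arrays on the deposited scaling. Itga2b, the αIIb chain of the fibrinogen receptor and the surface antigen CD41, read 8.73, 8.77 and 8.54 in Pogz+/+ and 8.47, 8.76 and 8.80 in Pogz-/-. The log2 fold change was −0.01 over 6 arrays and 0.02 without replicate 1 (95% confidence interval −0.30 to 0.34, on the deposited scaling). With median centring it was 0.45 over 6 arrays and 0.29 without replicate 1 (limma, adjusted p = 0.327 and 0.274). Every Pogz-/- array was then higher, as for 26.5% of all genes on that scaling. Itgb3, its β3 partner, had log2 fold changes of 0.02 and −0.10 (interval −0.58 to 0.38 without replicate 1). Clec1b, encoding the podoplanin receptor CLEC-2, read 8.39, 8.30 and 8.06 in Pogz+/+ and 8.18, 8.68 and 8.67 in Pogz-/-. Signal differed by a log2 fold change of 0.26 over 6 arrays and 0.33 without replicate 1 (SE 0.17; limma, adjusted p = 0.504 and 0.350). Gp6, the collagen receptor, was dim, its log2 signal spanning 4.34 to 5.28 for Pogz+/+ and 4.31 to 5.42 for Pogz-/-, and its interval without replicate 1 ran from −0.88 to 1.46.

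Upstream sequence is shown for the 3 measured subunits of the glycoprotein Ib-IX-V complex, between which no difference was tested. It is also shown for Pf4 and Itga2b, whose signals were near even on the deposited scaling. Each is the 250 bases before the start that the RefSeq promoter table uses on GRCm38.p6 (for Gp9 a start inside the gene's outer bounds in RefSeq), 5′ to 3′ on the gene's strand. Capitals mark GATAA or its reverse complement TTATC, a core bound by GATA factors, and GGAAG or CTTCC, a core of ETS factors such as FLI1. Other forms of either core, such as GATAG, were not searched. Both strands were searched and overlapping matches counted separately.
Gp1bb (chr16:18622404-18622653, minus strand): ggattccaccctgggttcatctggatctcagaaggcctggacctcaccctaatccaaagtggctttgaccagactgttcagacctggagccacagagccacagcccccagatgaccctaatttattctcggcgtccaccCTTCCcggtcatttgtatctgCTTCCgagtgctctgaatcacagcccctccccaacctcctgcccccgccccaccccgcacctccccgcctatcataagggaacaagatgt
Gp9 (chr6:87777820-87778069, plus strand): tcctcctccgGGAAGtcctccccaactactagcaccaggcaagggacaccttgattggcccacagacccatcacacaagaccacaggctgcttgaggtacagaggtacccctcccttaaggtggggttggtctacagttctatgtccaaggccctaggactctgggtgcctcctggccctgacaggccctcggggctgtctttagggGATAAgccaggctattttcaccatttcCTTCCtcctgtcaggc
Gp5 (chr16:30310782-30311031, minus strand): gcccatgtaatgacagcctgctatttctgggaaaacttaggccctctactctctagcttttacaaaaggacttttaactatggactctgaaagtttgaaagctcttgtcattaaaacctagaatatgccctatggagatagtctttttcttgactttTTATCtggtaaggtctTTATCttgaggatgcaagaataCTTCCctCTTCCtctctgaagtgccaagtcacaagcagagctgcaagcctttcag
Pf4 (chr5:90772185-90772434, plus strand): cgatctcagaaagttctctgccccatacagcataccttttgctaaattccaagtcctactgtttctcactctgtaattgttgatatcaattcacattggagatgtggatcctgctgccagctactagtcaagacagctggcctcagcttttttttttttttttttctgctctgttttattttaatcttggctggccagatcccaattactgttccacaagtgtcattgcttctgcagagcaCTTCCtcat
Itga2b (chr11:102469884-102470133, minus strand): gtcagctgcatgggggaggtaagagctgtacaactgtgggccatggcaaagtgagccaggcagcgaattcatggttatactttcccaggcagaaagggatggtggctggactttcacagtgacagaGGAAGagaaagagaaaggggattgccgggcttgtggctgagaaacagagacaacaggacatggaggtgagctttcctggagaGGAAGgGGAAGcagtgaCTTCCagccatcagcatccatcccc
All 5 windows hold an ETS core, 1 in Pf4, 4 in Itga2b and 2 in each of the others. Of the 3 subunits, Gp5 holds 2 GATA cores and Gp9 holds 1, while none of the form searched is in the Gp1bb window. Over the 24 members with a sequence in the reference used here, 10 (41.7%) held a GATA core, 19 (79.2%) an ETS core and 6 (25%) both. Among 32841 promoters of the same length, the shares were 22.6%, 64.1% and 13.2%. A match is a short string that occurs often and is not a measured binding site. Of the strings searched, the windows of Gp1bb, Pf4 and Itga2b hold ETS cores alone.

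The brightest probe set of each receptor for soluble agonists had overlapping arrays. F2r, encoding the thrombin receptor PAR1, read 10.91, 10.65 and 10.89 in Pogz+/+ and 10.69, 10.63 and 10.83 in Pogz-/-. Its log2 fold change without replicate 1 was −0.05, with a 95% confidence interval of −0.28 to 0.18, and 0.22 with median centring. P2ry12, the ADP receptor blocked by clopidogrel, read 5.03, 5.42 and 5.14 in Pogz+/+ and 4.45, 4.67 and 5.37 in Pogz-/-. The lowest arrays were those of Pogz-/- replicates 1 and 2 while its replicate 3 lay among the Pogz+/+ arrays, and the log2 fold change was −0.37 over 6 arrays and −0.45 without replicate 1 (SE 0.47; limma, adjusted p = 0.721 and 0.658). P2rx1, an ATP-gated channel, read 6.56, 6.50 and 6.11 in Pogz+/+ and 6.36, 5.98 and 5.99 in Pogz-/-, with a log2 fold change of −0.28 and −0.19. Its dimmer probe set went the other way and did not overlap, with 5.60, 4.74 and 4.68 in Pogz+/+ and 5.93, 5.65 and 5.91 in Pogz-/- (log2 fold change 0.82 and 1.11; limma over all probe sets, adjusted p = 0.364 and 0.139). F2rl2, encoding the thrombin receptor PAR3, ranged from 5.56 to 7.06 in Pogz+/+ alone, and its log2 fold change went from −0.31 over 6 arrays to 0.02 without replicate 1.

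The other surface proteins held the widest range of differences, in both directions. Treml1, encoding the alpha-granule membrane receptor TLT-1, which is exposed on activated platelets, read 7.88, 7.65 and 7.13 in Pogz+/+ and 6.996, 6.897 and 6.831 in Pogz-/-. All Pogz-/- arrays were lower, and the log2 fold change was −0.65 over 6 arrays (SE 0.24; limma, adjusted p = 0.217) and −0.49 without replicate 1 (SE 0.21; limma, adjusted p = 0.251). With median centring it was −0.19 and −0.21 (limma, adjusted p = 0.691 and 0.619), and the arrays overlapped. Selp encodes P-selectin, the leukocyte-binding protein of alpha-granules and of endothelial storage granules. It read 4.04, 4.77 and 4.31 in Pogz+/+ and 5.23, 5.44 and 5.45 in Pogz-/-, all higher in Pogz-/-. The log2 fold change was 1.00 over 6 arrays (SE 0.51; limma, adjusted p = 0.320) and 0.84 without replicate 1 (SE 0.43; limma, adjusted p = 0.335). All 3 probe sets of Selp had positive fold changes in both fits, and all were dim.

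Cd9, a tetraspanin present on platelets and many other cells, read 5.01, 7.11 and 6.48 in Pogz+/+ and 7.11, 7.36 and 7.28 in Pogz-/-. Replicate 1 was more than 1 log2 unit below the other Pogz+/+ arrays, and the highest of those lay just under the lowest Pogz-/- array. The log2 fold change went from 1.05 over 6 arrays to 0.45 without replicate 1 (SE 0.45 and 0.22; limma, adjusted p = 0.262 and 0.312). Cd226, an adhesion receptor of platelets and lymphocytes, was the most scattered member, with 4.91, 5.28 and 4.33 in Pogz+/+ and 4.34, 1.79 and 2.59 in Pogz-/-. Its log2 fold change over 6 arrays, −1.93, had an interval from −3.85 to −0.01 (limma, adjusted p = 0.280). Without replicate 1 it was −1.90, with an interval from −4.02 to 0.23 (limma, adjusted p = 0.327).

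**Figure D2:**
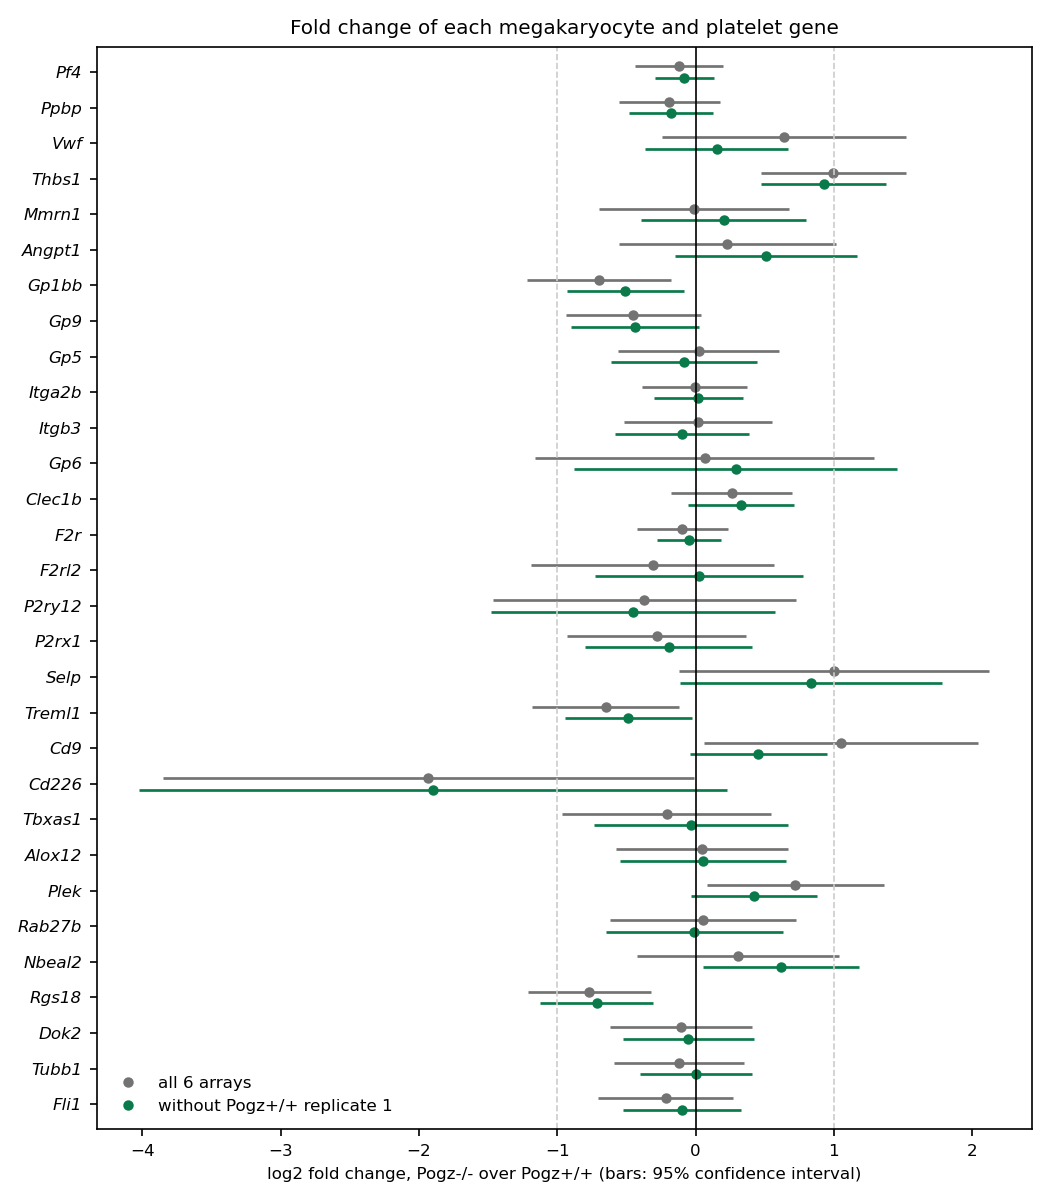
Log2 fold change of Pogz-/- over Pogz+/+ for each of the 30 genes (x axis), over all 6 arrays in grey and without Pogz+/+ replicate 1 in green, with bars for the 95% confidence interval from limma. Dashed lines mark a 2-fold difference. Most intervals include 0, those of Thbs1, Gp1bb, Treml1 and Rgs18 exclude it in both fits, and Cd226 has the widest. Intervals are not adjusted for the number of genes.

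The eicosanoid enzymes were near even. Tbxas1, encoding thromboxane synthase, read 6.60, 5.73 and 6.40 in Pogz+/+ and 5.70, 6.09 and 6.30 in Pogz-/-, and Alox12, encoding platelet 12-lipoxygenase, read 6.74, 6.53 and 6.91 and then 6.31, 7.15 and 6.86. Their log2 fold changes without replicate 1 were −0.03 and 0.05, with intervals of −0.73 to 0.67 and −0.55 to 0.65, the first of which includes a 1.5-fold difference either way and the second one upwards.

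Among genes of signalling, secretion and the cytoskeleton, Rgs18 was the lowest in Pogz-/- relative to Pogz+/+. Its product restrains signalling from G protein-coupled receptors in platelets and megakaryocytes. Rgs18 read 8.25, 7.98 and 8.21 in Pogz+/+ and 7.20, 7.28 and 7.66 in Pogz-/-. The groups did not overlap, and the log2 fold change was −0.77 over 6 arrays (SE 0.20; limma, adjusted p = 0.132) and −0.72 without replicate 1 (SE 0.19; limma, adjusted p = 0.0541), just outside the threshold. With median centring it was −0.31 and −0.44 (limma, adjusted p = 0.526 and 0.194), and the groups overlapped. Its second probe set showed the same order of groups, with 8.17, 7.84 and 8.01 in Pogz+/+ and 7.28, 7.31 and 7.50 in Pogz-/- (log2 fold change −0.64 and −0.56; limma over all probe sets, adjusted p = 0.210 and 0.127).

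Nbeal2, which is needed to form alpha-granules, read 6.79, 5.97 and 5.74 in Pogz+/+ and 6.47, 6.35 and 6.62 in Pogz-/-. Replicate 1 was the highest array and the other Pogz+/+ arrays were the lowest, so that the log2 fold change went from 0.31 over 6 arrays to 0.62 without replicate 1 (SE 0.26; limma, adjusted p = 0.229). Plek, encoding pleckstrin, a substrate of protein kinase C in platelets and leukocytes, read 7.58, 8.74 and 8.21 in Pogz+/+ and 8.55, 8.90 and 9.25 in Pogz-/-. The genotypes overlapped, and the log2 fold change went from 0.72 to 0.43 without replicate 1 (SE 0.21; limma, adjusted p = 0.240 and 0.307). Tubb1, the β1-tubulin of proplatelets and platelets, read 8.67, 8.42 and 8.19 in Pogz+/+ and 7.97, 8.37 and 8.58 in Pogz-/-. Without replicate 1 its log2 fold change was 0.00 (interval −0.40 to 0.41). Rab27b, a small GTPase of granule secretion, and Dok2, an adaptor that dampens tyrosine kinase signalling, had log2 fold changes without replicate 1 of −0.01 and −0.05, both with overlapping arrays. A dimmer probe set of Rab27b was lower in every Pogz-/- array, with 4.93, 5.38 and 5.57 in Pogz+/+ and 4.52, 4.66 and 4.85 in Pogz-/- (log2 fold change −0.80 without replicate 1, SE 0.42; limma over all probe sets, adjusted p = 0.398).

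Fli1, the ETS transcription factor that acts on many of the genes above, read 7.63, 7.36 and 7.20 in Pogz+/+ and 7.42, 7.02 and 7.11 in Pogz-/-. The log2 fold change was −0.22 over 6 arrays and −0.10 without replicate 1 (interval −0.53 to 0.33). A dimmer probe set gave 0.35 and 0.23.

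Probe sets of the same gene were compared for the 15 members that had more than 1. Without Pogz+/+ replicate 1, all probe sets of Mmrn1, Nbeal2, Selp and Thbs1 had positive fold changes, all of F2r, Gp1bb and Rgs18 had negative ones, and the other 8 genes were mixed. Over 6 arrays the genes with all probe sets positive were Alox12, Itgb3, Nbeal2, Plek and Selp, and those with all negative were F2rl2, Gp1bb and Rgs18. Over the 49 probe sets, 0 were called over 6 arrays, beside 0.0311% higher and 0.00666% lower of all 45037 probe sets. Without replicate 1, 1 was called higher (2.04%, the bright one of Thbs1; limma over all probe sets, adjusted p = 0.0381) and 0 lower, beside 1.45% and 1.22%.

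**Figure D3:**
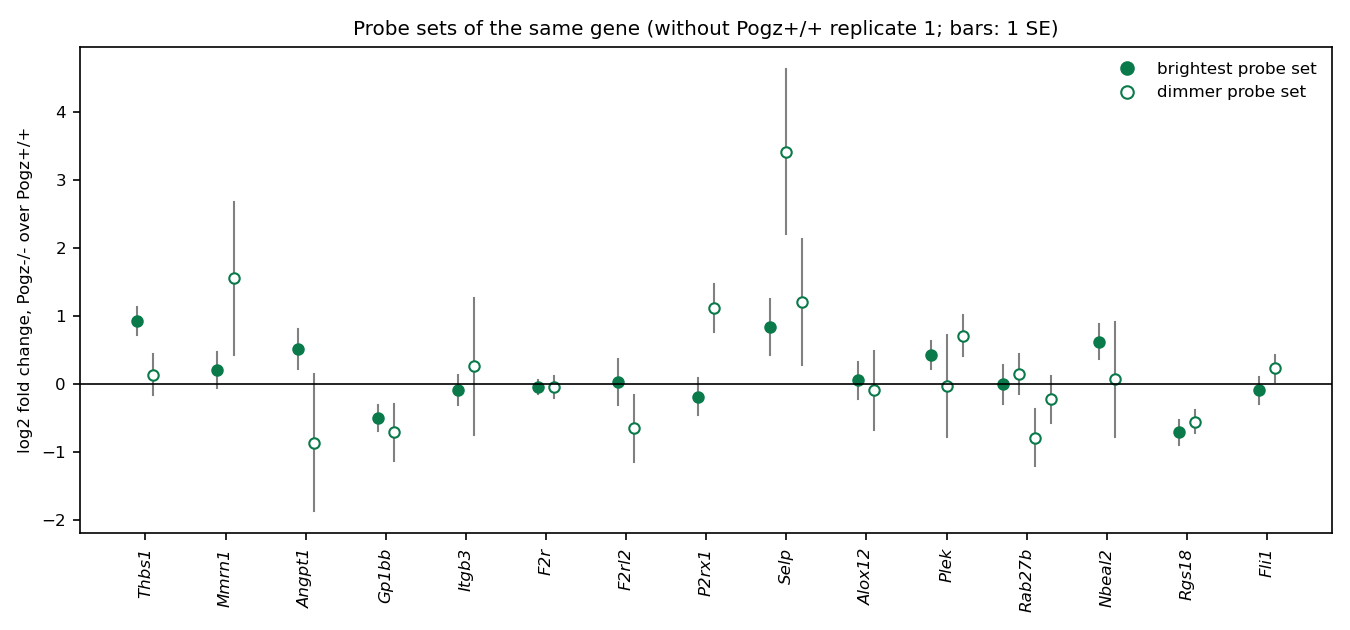
Log2 fold change without Pogz+/+ replicate 1 of every probe set of the 15 genes with more than 1 (y axis; bars show 1 SE from limma), the brightest filled and the others open. Probe sets of Rgs18, Gp1bb and Selp lie on the same side of 0, while those of P2rx1, Angpt1 and Fli1 lie on opposite sides, and the dimmer Thbs1 probe set (0.13) lies far below the bright one (0.93).

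The livers of one genotype also differed from each other across these genes. Within Pogz-/-, replicate 1 had the lowest signal of the 3 arrays for 22 of 30 members (73.3%), against 35.2% of all genes, and replicate 3 the highest for 19 (63.3%), against 31.0% of all genes. Relative to each gene's mean over the 6 arrays, the median member lay at −0.20 in Pogz-/- replicate 1, 0.01 in replicate 2 and 0.14 in replicate 3, while the median of all genes lay between −0.04 and −0.02. In Pogz+/+ the median member lay at 0.15, 0.06 and −0.07. The roles differed in Pogz-/- replicate 1. There the median was −0.40 over the 7 adhesion receptors, −0.44 over the 2 eicosanoid enzymes and −0.23 over the 4 receptors for soluble agonists. It was −0.08 over the 6 alpha-granule and secreted proteins and −0.12 over the 6 genes of signalling, secretion and the cytoskeleton. The 4 other surface proteins went the other way, at 0.37, as did Fli1, at 0.13. Other lists did not all follow this order: the mean log2 signal over 9 hepatocyte genes was 8.08 there, 8.98 in replicate 2 and 9.26 in replicate 3, and that over 13 macrophage genes was 7.19, 7.35 and 7.50, while that over 16 endothelial genes was 5.46, 5.18 and 5.27, that over 12 erythroid genes 11.07, 11.09 and 10.98 and that over 14 progenitor genes 6.31, 6.45 and 6.27. Their part in the spread was not tested. The difference between genotypes without Pogz+/+ replicate 1 was smaller than the SD of the 3 Pogz-/- arrays for 17 of 30 members (56.7%), beside 45.6% of all genes.

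Another 105 measured genes of this lineage, in 5 lists made by function, had a similar balance, with 0 called over 6 arrays and a median log2 fold change of −0.05. Without Pogz+/+ replicate 1, 3 of the 105 were called higher, beside 2.41% of all genes, and 4 lower, beside 2.07%. The 6.67% called in both directions together is to be set beside both of these shares, not either alone. The median was −0.02. These 7 genes are not confined to megakaryocytes. Of 17 transcription factors, 1 rose and 1 fell without replicate 1. Gfi1b, a repressor needed in both megakaryocytes and red cells, read 8.485, 8.999 and 9.421 in Pogz+/+ and 9.79, 9.73 and 9.88 in Pogz-/- (log2 fold change 0.59, SE 0.13; limma, adjusted p = 0.0307). Nfe2, encoding the large subunit of NF-E2, which acts in late megakaryocytes and in red cells, read 12.11, 11.93 and 11.99 in Pogz+/+ and 11.03, 11.43 and 11.45 in Pogz-/- (log2 fold change −0.66, SE 0.12; limma, adjusted p = 0.0120). Both separated the genotypes in every array, over 6 arrays at an adjusted p of 0.140 and 0.106. Gata1, Tal1 and Runx1 were not called, with log2 fold changes without replicate 1 of −0.10, −0.22 and 0.33.

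Of 12 measured genes of thrombopoietin receptor signalling, 0 were called in either fit, and the median log2 fold change was 0.18 over 6 arrays and 0.09 without replicate 1. Jak2, the kinase bound to the receptor, had log2 fold changes of −0.01 and −0.07. The genes of the receptor and its ligand have no probe set named in the annotation used here. Of 24 genes of granule cargo and biogenesis, 2 rose and 1 fell without replicate 1. F13a1, the A subunit of factor XIII, which macrophages also make, read 10.07, 9.45 and 9.45 in Pogz+/+ and 9.85, 9.93 and 10.05 in Pogz-/- (log2 fold change 0.49, SE 0.11; limma, adjusted p = 0.0246). With replicate 1, which was above all Pogz-/- arrays, it was 0.29 (adjusted p = 0.447). Srgn, the proteoglycan of the granules of many blood cells, rose by 0.43 (SE 0.09; limma, adjusted p = 0.0246). Vamp3, a vesicle fusion protein of many cells, fell by 0.35 (SE 0.09; limma, adjusted p = 0.0499).

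Of 19 genes of the cytoskeleton and proplatelets, 1 fell without replicate 1: Cfl1, the actin-severing protein cofilin 1, which is found in nearly all cells (log2 fold change −0.49, SE 0.08; limma, adjusted p = 0.0061). Of 33 receptors and signalling genes, 1 fell: Stim1, the calcium sensor of the endoplasmic reticulum. It read 10.34, 9.82 and 10.06 in Pogz+/+ and 8.70, 9.37 and 9.18 in Pogz-/- (log2 fold change −0.86, SE 0.17; limma, adjusted p = 0.0186). Over 6 arrays its log2 fold change was −0.99 (limma, adjusted p = 0.0945). None of the 7 genes turned its direction under any of the 12 alternatives tried without replicate 1, but their calls and sizes were less steady: 5 passed with quantile normalization, 4 with median centring, and 0 with limma without trend and robust, with the mean over a gene's probe sets, with the methods' t-test, or when Pogz+/+ replicate 2 or 3 was left out as well. The log2 fold change of Cfl1 was −0.01 with the mean over its probe sets (adjusted p = 0.978) and −0.22 with median centring (adjusted p = 0.187), and that of Vamp3 was −0.08 with median centring (adjusted p = 0.741). Leaving out 1 Pogz-/- array left 5, 3 and 1 of them past the threshold, for replicates 1, 2 and 3.

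**Figure D4:**
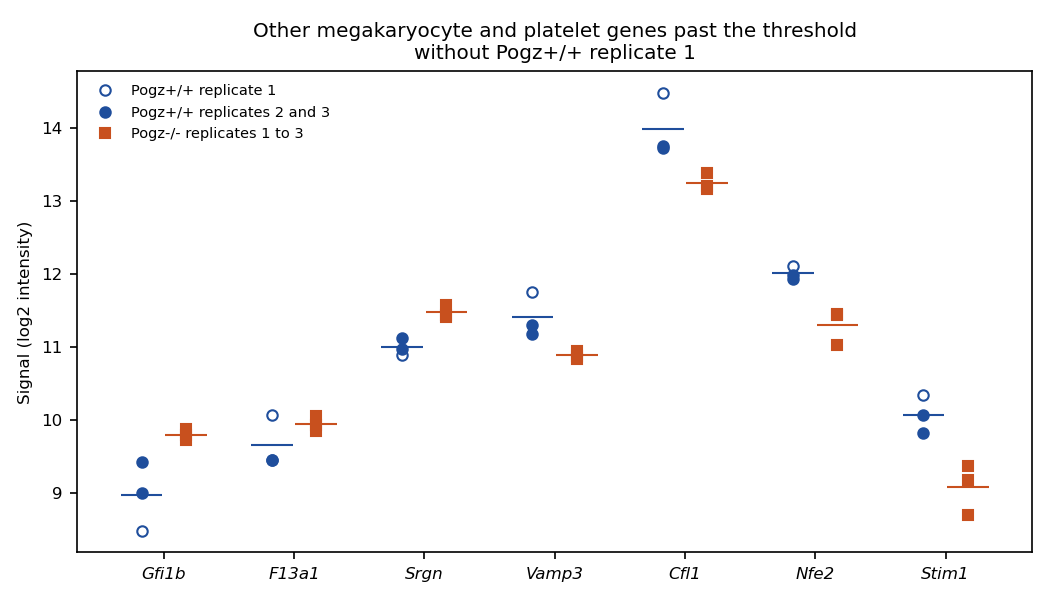
Log2 signal in each array (y axis) of the 7 other megakaryocyte and platelet genes that passed the threshold without Pogz+/+ replicate 1. Open circles are Pogz+/+ replicate 1, filled circles replicates 2 and 3, squares the Pogz-/- arrays and short lines the mean of each genotype. Gfi1b and Srgn are higher and Vamp3, Cfl1, Nfe2 and Stim1 lower in every Pogz-/- array, while F13a1 overlaps through replicate 1.

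Several members are also expressed by other cells of the FL, so marker lists of those cells were measured on the same arrays. Vwf, Selp and Angpt1 are shared with endothelium and its neighbours. Of 16 endothelial markers, 0 were called in either fit, with a median log2 fold change of −0.18 over 6 arrays and −0.30 without replicate 1. The sum of their intensities ranged from 1080 to 1290 for Pogz+/+ and from 1010 to 1180 for Pogz-/-, and of the defining markers Pecam1 and Tie1 were dim (log2 signals of 1.62 to 4.84 and of −0.15 to 5.50) and Cdh5 was 6.13 to 7.37. Thbs1 is also made by stroma, of whose 13 markers 0 were called (summed intensity 986 to 1210 for Pogz+/+, 765 to 1040 for Pogz-/-). Plek and Cd9 are also found in macrophages, of whose 13 markers 0 were called (6030 to 6980 and 4290 to 5920). Of 9 mast cell and basophil markers, 0 were called, with a median of −0.64 and −0.42 and a summed intensity of 725 to 845 for Pogz+/+ and of 494 to 554 for Pogz-/-. No gene of these 4 lists was called higher in either fit, and the part of these cells in the members' values was not tested.

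Progenitors and red cells are the closest relatives of megakaryocytes in the FL. The progenitor list of 14 markers had a median log2 fold change of −0.33 over 6 arrays and −0.25 without replicate 1. Without replicate 1, 2 of them rose, Kit, the stem cell factor receptor, by 0.91 (limma, adjusted p = 0.00421) and Myb, a transcription factor of immature blood cells, by 0.45 (adjusted p = 0.0165). With the mean over each gene's probe sets, the log2 fold change was 0.39 for Kit (limma, adjusted p = 0.59) and 0.70 for Myb (adjusted p = 0.014). Of 12 erythroid markers, 4 fell (Alas2, Ermap, Klf1 and Slc4a1, of which the first 3 lay at 0.02 to 0.04 over 6 arrays with median centring), with a list median of −0.26 over 6 arrays and −0.28 without replicate 1. The summed intensity of the erythroid list ranged from 72900 to 93900 for Pogz+/+ and from 53400 to 56200 for Pogz-/-. Over 6 arrays 0 genes of either list were called, and the 7 markers named here passed in 4 to 9 of the 12 alternatives tried without replicate 1. Of 9 hepatocyte markers 1 fell, Afp, by 0.66 (limma, adjusted p = 0.00879). These lists moved between the same livers as the members above, and their part in those members' values was not tested.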

How the data were processed

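Total RNA (about 100 ng for each liver) was labelled by 3′ in vitro transcription and hybridised to Affymetrix mouse genome arrays. Per the submitters' processing notes, the authors used Affymetrix Expression Console (version and algorithm not given in the sources used here), and they deposited 1 intensity per probe set on a linear scale, with a 2% trimmed mean of 150 in each array. Such scaling leaves array medians unequal. Log2 was taken without a pseudocount. After 64 control probe sets were left out, 45037 were tested, of which 34945 name 1 gene in the platform annotation, 932 several and 9160 none. Symbols were updated through gene IDs to RefSeq. Each of 18193 genes was represented by its brightest probe set (mean log2 over 6 arrays).

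Genotypes were compared by limma 3.58.1 (R 4.3.3; lmFit, eBayes with trend and robust, genotype as the one term, two-sided, Benjamini-Hochberg adjustment over all genes or all probe sets), over all 6 arrays and without Pogz+/+ replicate 1, which leaves 2 Pogz+/+ arrays. The labels call the arrays biological replicates. The alternatives were quantile normalization, median centring, limma without trend and robust, bright genes only, an added 1.5-fold limit, the methods' t-test, the mean over a gene's probe sets, the replicate number as a block and leaving out each array.

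The members, the gene lists and the fits were chosen with earlier results of these data known. Values in every array are given for members called in either fit, members whose arrays do not overlap and, in each role, the 2 members with the largest moderated t without replicate 1. Other members with values are examples picked with those values known. Of each list, genes called in either fit are named. The promoter sequences come from RefSeq (GRCm38.p6), where 24 of 33 members matched. On simulated arrays of 18193 genes with the real means and spreads, the fit over 6 arrays called 0 of 67 genes changed 1.5-fold, 5 of 67 changed 2-fold and 18 of 66 changed 4-fold, with 2 false calls. Without replicate 1 it called 0, 11 and 19, with 0 false calls. The number of arrays limits the precision.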

Additional observations from a re-analysis of the deposited data

How the results depend on the processing

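Over 6 arrays, 0 members were called in either direction under each alternative, except that 1 (Thbs1) was higher without Pogz+/+ replicate 1, so the count when 1 array was left out ranged from 0 to 1. In the fit without that replicate, the count of higher members was 3 with median centring (Thbs1, Plek and Clec1b), 0 with limma without trend and robust, 0 with the methods' t-test and 0 with the mean over probe sets, and 0 to 1 when a further array was left out. The count of lower members, 0 in the main analysis, was 1 (Rgs18) with quantile normalization (limma, adjusted p = 0.0499) and 1 with bright genes only (limma, adjusted p = 0.0218). The share of all genes called under these alternatives was not counted, so these counts of members have no background beside them. With median centring the members' median was 0.41 over 6 arrays and 0.25 without replicate 1, beside 0.29 and 0.18 over all genes. With that centring 2 probe sets were called higher without replicate 1 (0 with limma without trend and robust). Arrays then did not overlap, with Pogz-/- above, for 10 of 30 members, beside 26.5% of all genes. These were Angpt1, Cd9, Clec1b, Itga2b, Mmrn1, Nbeal2, Pf4, Plek, Selp and Thbs1. Pogz-/- was below for 1 member, Gp1bb, beside 5.66% of all genes. Median centring removes the difference in array medians between genotypes, which raises every log2 fold change by the same amount. The cause of the other shifts was not tested. The sign of the fold change turned in 91 of 742 comparisons of a member with an alternative, in 20 members, in none of them with a call on either side.

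No pairing of arrays by replicate number was seen. Deviations of same-numbered arrays from their genotype means correlated at 0.004, −0.009 and −0.013, beside −0.015 to 0.024 for arrays of different numbers. These values do not settle whether arrays shared a litter. With the replicate number as a block, 0 members were called over 6 arrays, and without Pogz+/+ replicate 1 Thbs1 was called at a log2 fold change of 1.00 (adjusted p = 0.0303) and 0 members were lower.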
